A study of Mus musculus with 8 samples.

Results

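Ion channel genes were examined in the spinal cords of mice with EAE (experimental autoimmune encephalomyelitis, a mouse disease in which immune cells attack myelin, used to study multiple sclerosis) and of healthy control mice. The members are the probe sets of the Affymetrix MG U74Av2 array whose annotation gives 1 gene symbol beginning with Kcn, Scn and a digit, Cacn, Hcn, Clcn, a Trp channel prefix, Ryr or Itpr. The rule found 105 probe sets of 80 genes, out of 12422 probe sets tested. It used the gene names and no measured value, but it was chosen with earlier results of these data known. They comprise 51 potassium, 3 HCN (hyperpolarization-activated), 8 sodium, 13 calcium, 13 chloride, 9 TRP (transient receptor potential) and 8 intracellular calcium release probe sets. One of the TRP members, Trpc4ap, encodes a protein that binds a TRP channel and is itself no channel.

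The 5 EAE arrays came from 10 female SJL/J mice and the 3 control arrays from 6 female SJL/J mice, with the whole spinal cord RNA of 2 animals pooled on each array. EAE was induced with a PLP peptide injected under the skin of the flank, which the methods describe as emulsified in complete Freund's adjuvant with pertussis toxin given as well, and EAE mice had an average grade of 2.5 and were killed between days 12 and 17. Control mice received vehicle only, were matched for age and sex (8 to 12 weeks in the labels, 8 weeks in the methods) and were killed together with EAE mice. EAE mice also received murine serum albumin into a vein before they were killed, and no such injection is named for control mice, so effects of EAE, of the adjuvant and of albumin cannot be told apart. The mice carried no engineered allele, and since pools are the samples, the spread between single animals within a pool is not seen. Batches 1, 2 and 3 each held 1 EAE and 1 control array and batches 4 and 5 held 1 EAE array each.

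Ion channels are membrane proteins that let chosen ions pass, and their opening by voltage, calcium, ligands or temperature sets how a cell fires, secretes and moves. In myelinated axons of the spinal cord, sodium channels cluster at the nodes of Ranvier and Kv1 potassium channels lie next to them under the myelin, where contactins and ankyrins hold them in place. Microglia, macrophages and lymphocytes carry another set, among them Kv1.3, KCa3.1 and TRPV2, and the CLC proteins of endosomes and lysosomes work in nearly every cell.

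Channel transcripts were more often lower than higher in EAE. Expression is given as log2 signal, and a difference is the EAE minus control value from limma with a batch term, two-sided, called where the p value adjusted over all 12422 probe sets (Benjamini-Hochberg) was under 0.05. Of the 105 channel probe sets, 27 (25.7%), of 21 genes, were lower in EAE, against 11.4% of all probe sets, and 2 (1.90%), Trpv2 and Clcn7, were higher, against 8.26% of all probe sets. The other 76 did not pass. The median difference was -0.10 over all channel probe sets and -0.05 over all probe sets tested.

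Most channel probe sets were dim, and the calls lay among the brighter ones. The 6211 brightest probe sets of the array, ranked by their mean over the 8 arrays, are called bright here. Of the 45 channel probe sets among them, 23 were lower in EAE, against 18.6% of all bright probe sets. Of the 60 dimmer channel probe sets 4 were lower, against 257 of the 6211 dimmer probe sets of the array. The median difference of the bright channel probe sets was -0.46, against -0.10 for all bright probe sets. All 5 EAE arrays lay below all 3 control arrays for 28 channel probe sets, against 15.1% of all probe sets, and above them for 2, against 10.9%.

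The 27 lower probe sets differed by -1.12 to -0.27, with a median of -0.56, and only Hcn2 fell to less than 0.5 of the control level. All 27 were lower in the EAE array than in the control array of batches 1, 2 and 3. The groups did not overlap for 19 of them and overlapped for 8, and in each of the 8 only EAE array 4, EAE array 5 or both reached the lowest control array. With a batch term the difference rests on batches 1 to 3, and EAE arrays 4 and 5 add nothing to it. A change in the mix of cells and less RNA in each cell cannot be told apart in RNA of whole tissue.

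**Figure D1:**
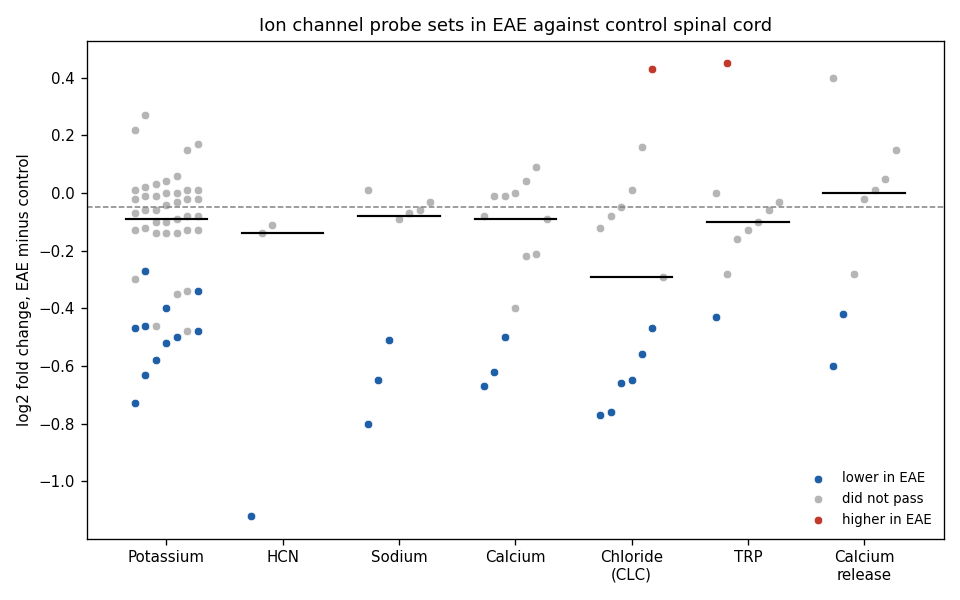
Difference between EAE and control (log2, limma with batch) of each of the 105 channel probe sets, by class, with colours for probe sets that passed the adjusted p threshold of 0.05, a solid line at the median of each class and a dashed line at the median of all probe sets tested (-0.05). Every class holds called probe sets on the lower side, and 2 probe sets, Trpv2 and Clcn7, were called higher.

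Sodium channels open the action potential, and all 8 sodium probe sets (6 genes) were alpha subunits, the part that forms the pore. Scn8a and Scn1a were lower in EAE, with 3 probe sets (37.5%, against 11.4% of all probe sets). The other 5 did not pass, and the median of the class was -0.08. The 3 that fell were the 3 bright sodium probe sets.

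Scn8a encodes Nav1.6, the main sodium channel of mature nodes of Ranvier. Its brighter probe set (104504_at) read 5.98, 6.07, 6.57, 6.30 and 5.97 on EAE arrays 1 to 5 and 7.31, 6.73 and 6.98 on control arrays 1 to 3. All EAE arrays were below all control arrays. The difference was -0.80 (SE 0.183, 95% confidence interval -1.27 to -0.33, limma adjusted p = 0.0399), a level in EAE of 0.573 of control. The other Scn8a probe set (104505_at) lay near the floor of the array, at 4.04 ± 0.05 in EAE (SD, n = 5) and 4.10 ± 0.03 in control (SD, n = 3), and differed by -0.03. A mean of both, which takes in this dim probe set, missed the threshold (-0.42, limma adjusted p = 0.053).

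Scn1a encodes Nav1.1, found in inhibitory interneurons and at the start of many axons. Its probe set 94201_at read 8.11, 8.50, 8.09, 8.56 and 9.01 on EAE arrays 1 to 5 and 8.94, 8.94 and 8.76 on control arrays 1 to 3. EAE array 5 was above every control array, so the groups overlap, and the difference of -0.65 (SE 0.0948, limma adjusted p = 0.0125) comes from the lower EAE arrays of batches 1 to 3. The second probe set (162255_s_at), the brightest of the class, differed by -0.51 (limma adjusted p = 0.0435) and overlapped too. Without the batch term neither passed (limma adjusted p = 0.18 and 0.146). Scn3a, an embryonic form, Scn7a, a sodium sensor, and Scn9a and Scn10a, channels of pain-sensing neurons, all read under 4.80 on every array, with differences of -0.09 to 0.01.

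Potassium channels bring the membrane back to rest, and 11 of their 51 probe sets (21.6%), of 9 of 42 genes, were lower in EAE. The share of all probe sets was 11.4%. No potassium probe set was higher, against 8.26% of all probe sets, and the median was -0.09. Of the bright ones 8 of 16 were lower, against 18.6% of all bright probe sets. By kind, 4 of 19 probe sets of voltage-gated alpha subunits (21.1%) and 3 of 7 of accessory subunits (42.9%) were lower. Of two-pore domain channels 2 of 5 (40.0%) were lower, of inward rectifiers 1 of 15 (6.67%) and of the calcium-activated family 1 of 5 (20.0%).

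Kv1.1, the product of Kcna1, lies beside the nodes of Ranvier under the myelin and limits repeated firing. Kcna1 read 9.21, 9.45, 9.44, 8.48 and 9.03 on EAE arrays 1 to 5 and 9.81, 9.79 and 9.99 on control arrays 1 to 3. EAE array 4 was the lowest, and no EAE array reached the control arrays. The difference was -0.50 (SE 0.0800, 95% confidence interval -0.70 to -0.29, limma adjusted p = 0.0161). Kcna2, which forms channels together with Kcna1, also had all EAE arrays (5.72 to 5.94) below all control arrays (6.01 to 6.30), but at -0.30 it did not pass (limma adjusted p = 0.107). Kcna4 and Kcna6, further members of the family, lay at 4.60 to 5.04 on all arrays and differed by -0.14 and -0.08.

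The beta subunits that attach to Kv1 channels were among the lower members. Kcnab1 (102725_at) had the smallest adjusted p of all channel probe sets, with a difference of -0.63 (SE 0.0653, limma adjusted p = 0.00491). It read 7.81, 8.07, 7.63, 8.12 and 8.32 on EAE arrays 1 to 5 and 8.47, 8.64 and 8.29 on control arrays 1 to 3, so EAE array 5 just exceeded control array 3, while the differences within batches 1, 2 and 3 were close to each other at -0.66, -0.57 and -0.66. Its second, dimmer probe set differed by -0.34 (limma adjusted p = 0.0392) with no overlap. Without the batch term the first did not pass (limma adjusted p = 0.0666).

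Kcnab2, the other main beta subunit of brain Kv1 channels, gave a difference of -0.52 on probe set 162182_f_at (limma adjusted p = 0.0193). The EAE arrays lay at 7.03 to 7.66 there, all below the control arrays at 7.92 to 8.21. On probe set 102892_at the difference of -0.46 did not pass (SE 0.208, limma adjusted p = 0.208), and the differences within batches 1 to 3 were -1.08, -0.03 and -0.27. Kcnab3 differed by -0.35 (limma adjusted p = 0.178).

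Of the other voltage-gated potassium channel alpha subunits, Kcnd2 and Kcnh2 were lower. Kcnd2 encodes Kv4.2, the A-type channel of dendrites and of the dorsal horn, and both its probe sets fell, by 0.58 (limma adjusted p = 0.0197) and by 0.47 (limma adjusted p = 0.0186) on the log2 scale. On the dimmer one (98364_at) the EAE arrays read 4.60, 4.82, 4.74, 4.87 and 5.02 and the control arrays 5.22, 5.17 and 5.18, with no overlap. On the brighter one (99339_r_at) control array 3, at 7.60, lay within the EAE range of 7.24 to 7.78. Kcnh2, the ERG channel, differed by -0.46 (SE 0.0717, limma adjusted p = 0.0143), with EAE arrays at 7.49 to 7.80 and control arrays at 7.99 to 8.33. Kcnd3, Kcnc1 and both probe sets of Kcnq1 did not pass, with differences of -0.14 to 0.17.

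Among the inward rectifiers only Kcnj9, which encodes GIRK3, a channel opened by G proteins, passed. Its probe set 98332_at read 6.45, 6.02, 6.33, 6.40 and 5.94 on EAE arrays 1 to 5 and 6.99, 6.96 and 7.04 on control arrays 1 to 3. The groups were well apart, and the difference was -0.73 (SE 0.0980, 95% confidence interval -0.98 to -0.48, limma adjusted p = 0.00989). The second Kcnj9 probe set (161799_r_at) read 6.09 to 6.78 in EAE and 6.03 to 6.90 in control and differed by -0.13. Kcnj3, Kcnj5 and Kcnj6, which encode the other GIRK subunits, lay between 4.23 and 5.63 on all arrays with differences of -0.14 to 0.01.

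Two-pore domain channels carry the resting potassium leak. Kcnk1 (TWIK-1), also known from astrocytes, differed by -0.48 (SE 0.0676, limma adjusted p = 0.0117), and Kcnk2 (TREK-1), which opens on stretch and to fatty acids, by -0.40 (SE 0.0707, limma adjusted p = 0.0204). In both genes the groups overlapped: Kcnk1 read 7.52, 7.93, 8.04, 8.32 and 8.27 in EAE and 8.07, 8.41 and 8.45 in control, and Kcnk2 read 6.98, 7.13, 6.92, 7.31 and 7.34 in EAE and 7.29, 7.53 and 7.41 in control. EAE arrays 4 and 5, which have no control array in their batch, were the highest EAE arrays in both. Neither passed without the batch term (limma adjusted p = 0.317 and 0.128).

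In the calcium-activated family, Kcnu1, a channel known from sperm, was called lower by 0.27 on the log2 scale (limma adjusted p = 0.0424) at a dim level of 4.94 ± 0.06 in EAE (SD, n = 5) and 5.18 ± 0.06 in control (SD, n = 3). Kcnma1, the BK channel of neurons and smooth muscle, had EAE arrays at 7.83 to 8.17 and control arrays at 8.33 to 8.79, but its difference of -0.48 did not pass (limma adjusted p = 0.068). Kcnn4 encodes KCa3.1 of lymphocytes and microglia, and it was the only potassium probe set with all EAE arrays above all control arrays. It read 5.60, 5.53, 5.72, 5.53 and 5.92 on EAE arrays 1 to 5 and 5.31, 5.38 and 5.36 on control arrays 1 to 3, and its difference of 0.27 did not pass (limma adjusted p = 0.0657).

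HCN channels open when the membrane is hyperpolarized and pace rhythmic firing. The difference of Hcn2 on probe set 94194_s_at was the largest of all channel probe sets at -1.12 (SE 0.199, 95% confidence interval -1.63 to -0.61, limma adjusted p = 0.0209), 0.459 of the control level. It read 6.53, 6.78, 7.62, 6.33 and 7.27 on EAE arrays 1 to 5 and 8.15, 7.94 and 8.20 on control arrays 1 to 3. The EAE arrays spread over more than 1 log2 unit, yet all lay below the control arrays. The second Hcn2 probe set (94195_r_at) read 7.97 to 8.31 in EAE and 8.21 to 8.36 in control and differed by only -0.11 (limma adjusted p = 0.336), so the 2 probe sets of the gene disagree. Hcn3 had EAE arrays at 7.25 to 7.33 and control arrays at 7.39 to 7.50 and differed by -0.14 (limma adjusted p = 0.223).

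The difference between the 3' and 5' probe sets of Gapdh, which grows as RNA is degraded, moved with the spread of Hcn2. It was 1.46 on EAE array 1 and 2.07 on EAE array 4, against 0.46 to 0.78 on the other EAE arrays and 0.53 to 0.97 on the control arrays, and EAE arrays 1 and 4 were also the lowest in Hcn2. EAE array 2, with a Gapdh difference of 0.65, followed them in Hcn2 at 6.78. The part of RNA quality in the Hcn2 difference was not tested. Without EAE array 1, and so without batch 1, the difference of Hcn2 (94194_s_at) was -0.87 (limma adjusted p = 0.0284) and that of Scn8a (104504_at) was -0.54 (limma adjusted p = 0.0321). Without control array 1 the values are the same, since the batch then holds no pair.

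Calcium channels turn firing into calcium entry, and 3 of 13 probe sets (23.1%, against 11.4% of all probe sets) were lower in EAE, none was higher and the median was -0.09. Cacna1g, the pore subunit of the T-type channel Cav3.1, which opens near rest, was the only one of 8 alpha1 probe sets to pass. It read 5.86, 6.05, 5.77, 6.24 and 6.09 on EAE arrays 1 to 5 and 6.66, 6.79 and 6.22 on control arrays 1 to 3, and differed by -0.67 (SE 0.0912, limma adjusted p = 0.0104). Only control array 3, just under EAE array 4, overlapped with the EAE arrays. Cacna1a and Cacna1b, which encode the P/Q-type and N-type channels of nerve endings, lay at 4.50 to 5.86 on all arrays with differences of -0.09 and -0.08.

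Accessory subunits carry calcium channels to the membrane, and 2 of their 5 probe sets (40.0%, against 11.4% of all probe sets) were lower. Cacna2d3, an alpha2-delta subunit known in pain pathways, read 7.46, 7.70, 7.16, 7.71 and 7.83 in EAE and 8.05, 8.17 and 7.97 in control, with no overlap and a difference of -0.62 (SE 0.0885, limma adjusted p = 0.0116). Cacng2, or stargazin, is named for its likeness to a calcium channel subunit and is best known for bringing AMPA-type glutamate receptors to synapses. It differed by -0.50 (limma adjusted p = 0.0234), with EAE array 4 at 7.26 slightly above control array 2 at 7.22. Cacna2d1, the target of gabapentin, differed by -0.40 and did not pass (SE 0.149, limma adjusted p = 0.134).

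The CLC family had the highest share of lower probe sets among the 4 ion classes, 6 of 13 (46.2%, against 11.4% of all probe sets), with a median of -0.29. However, 10 of its 13 probe sets are bright, against 16 of 51 for potassium, 3 of 8 for sodium and 5 of 13 for calcium. Among bright probe sets 6 of 10 were lower, against 8 of 16, 3 of 3 and 3 of 5 in these classes. The lower CLC probe sets come from 3 of 6 genes, and probe sets of 1 gene are not independent. The 3 genes, Clcn3, Clcn4 and Clcn5, encode chloride-proton exchangers of endosomes and synaptic vesicles, and the 1 higher member, Clcn7, encodes the exchanger of lysosomes.

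Clcn3 was measured by 4 probe sets, of which 3 were lower. On 94464_at it read 8.70, 8.88, 8.71, 8.70 and 8.96 on EAE arrays 1 to 5 and 9.63, 9.70 and 9.27 on control arrays 1 to 3, with no overlap and a difference of -0.77 (SE 0.0928, 95% confidence interval -1.01 to -0.53, limma adjusted p = 0.0075). The differences on 94465_g_at and 102786_at were -0.56 and -0.47 (limma adjusted p = 0.0252 and 0.0143), again with no overlap. The fourth, 94463_at, was the dimmest and differed by -0.29 without passing (limma adjusted p = 0.321).

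Both Clcn4 probe sets were lower, with differences of -0.76 on 99672_at (SE 0.100, limma adjusted p = 0.00973) and -0.66 on 104704_at (SE 0.154, limma adjusted p = 0.0421). The first read 8.00, 8.15, 7.83, 8.24 and 8.39 on EAE arrays 1 to 5 and 8.69, 8.73 and 8.83 on control arrays 1 to 3, so the control arrays were tightly grouped above all EAE arrays. Clcn5 (101913_at) read 7.13, 6.96, 6.69, 7.17 and 7.05 in EAE and 7.57, 7.75 and 7.39 in control, with no overlap and a difference of -0.65 (SE 0.0908, limma adjusted p = 0.0111). Its second, dim probe set differed by -0.12 (limma adjusted p = 0.258), also with no overlap. Clcn1, the channel of skeletal muscle, and Clcn2, known in glia, differed by -0.08 to 0.01.

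Clcn7 was higher in EAE on 104391_s_at, with a difference of 0.43 (SE 0.101, 95% confidence interval 0.17 to 0.69, limma adjusted p = 0.0435). It read 6.43, 6.88, 7.17, 6.62 and 6.80 on EAE arrays 1 to 5 and 6.24, 6.27 and 6.69 on control arrays 1 to 3. Control array 3 lay above EAE arrays 1 and 4, and the call was lost without the batch term (limma adjusted p = 0.163). The other Clcn7 probe set (104392_at) differed by 0.16 and did not pass (limma adjusted p = 0.184), and EAE arrays were above the control arrays of their own batch in both.

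Among the TRP members Trpv2, a cation channel that macrophages use in phagocytosis and migration, was higher in EAE. It read 6.40, 6.38, 6.37, 6.17 and 6.51 on EAE arrays 1 to 5 and 6.00, 5.93 and 5.87 on control arrays 1 to 3. All EAE arrays were above all control arrays, and the difference was 0.45 (SE 0.0653, 95% confidence interval 0.28 to 0.62, limma adjusted p = 0.0123), 1.37 times the control level. Trpc1, a cation channel of neurons and many other cells, was lower on 94739_at (-0.43, SE 0.0891, limma adjusted p = 0.0313), with EAE arrays at 5.40 to 5.85 and control arrays at 5.92 to 6.20. Its other probe set differed by -0.16 and did not pass (limma adjusted p = 0.232). Trpc4ap differed by -0.28 (limma adjusted p = 0.104), and the remaining TRP probe sets differed by -0.13 to 0.00.

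Ryanodine receptors release calcium from the endoplasmic reticulum, and 2 of their 4 probe sets (50.0%, against 11.4% of all probe sets) were lower. Ryr2, the main form in heart and brain, read 7.95, 8.01, 7.60, 8.14 and 8.09 on EAE arrays 1 to 5 and 8.59, 8.60 and 8.16 on control arrays 1 to 3. Control array 3 was only just above EAE array 4, but within batches 1, 2 and 3 the differences were alike at -0.64, -0.59 and -0.56, and the fitted difference was -0.60 (SE 0.0641, limma adjusted p = 0.0054). Ryr3, a form at low levels in brain, differed by -0.42 on 97126_at (limma adjusted p = 0.0196) and by -0.28 on 101830_at (limma adjusted p = 0.178). Ryr1, the form of skeletal muscle, read 3.87 to 4.06 over all arrays and differed by 0.05. None of the 4 probe sets of Itpr2, the inositol trisphosphate receptor best known from astrocytes, passed, and the brightest differed by 0.40 with a wide error (SE 0.169, limma adjusted p = 0.176).

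**Figure D2:**
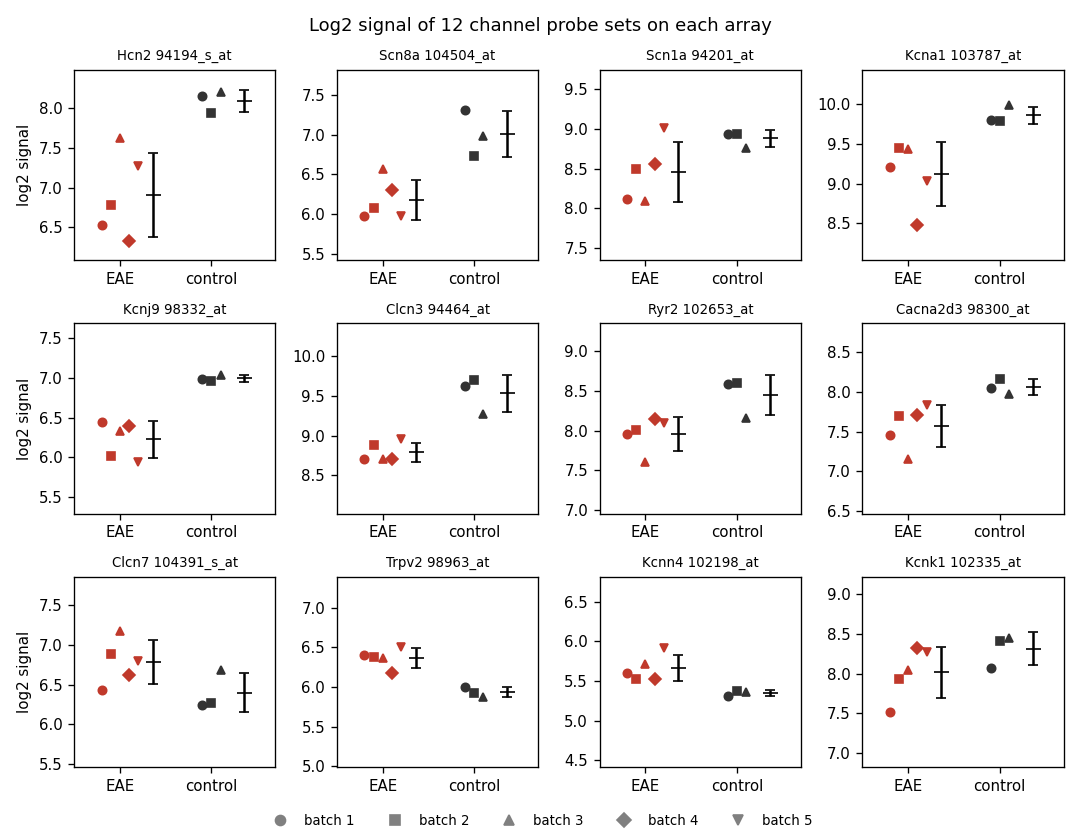
Log2 signal of selected channel probe sets on each array, with EAE arrays left of control arrays, the mean of each group and its SD (n = 5 EAE, n = 3 control). Hcn2 (94194_s_at) shows the widest spread among EAE arrays, and in Trpv2 and Kcnn4 all EAE arrays lie above all control arrays. Marker shapes stand for batches.

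The 4 ion classes were set side by side by their counts and medians, without a test of the difference between them. Among bright probe sets, 8 of 16 potassium, 3 of 3 sodium, 3 of 5 calcium and 6 of 10 chloride probe sets were lower in EAE, against 18.6% of all bright probe sets on the array. The mean level of the bright probe sets of a class, as its distance from the control mean, was -0.44 to -0.22 on EAE arrays and -0.08 to 0.06 on control arrays for potassium, and -0.77 to -0.31 on EAE arrays and -0.16 to 0.14 on control arrays for sodium. For calcium it was -0.49 to -0.21 on EAE arrays and -0.02 to 0.01 on control arrays, and for chloride -0.48 to -0.19 on EAE arrays and -0.02 to 0.04 on control arrays. In each of the 4 classes every EAE array lay below every control array, and the ranges of the classes overlapped one another.

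**Figure D3:**
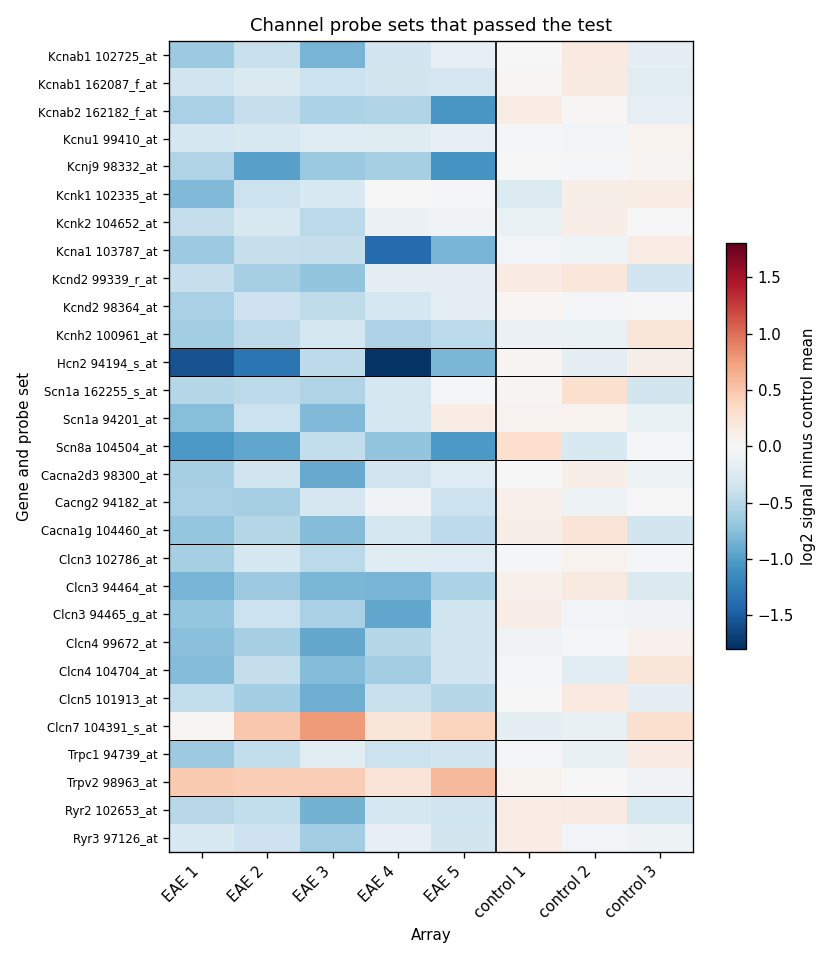
Log2 signal of each of the 29 called channel probe sets on every array as its distance from the control mean, with EAE arrays 1 to 5 left of control arrays 1 to 3. Hcn2 (94194_s_at) is the lowest row on EAE arrays 1, 2 and 4, and the rows of Trpv2 and Clcn7 run the other way.

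Sequences upstream of the gene starts are shown for the member with the largest fall and for the 2 that were higher. Clcn4, a paralog of Clcn7 that was lower, is shown as well. Clcn3 and Clcn5, also of the CLC family, were lower too and are not shown. The sequences of these genes are not aligned to each other. They are RefSeq sequences of GRCm38.p6, a C57BL/6J assembly and not SJL/J, each 160 bases long and ending 1 base before the annotated start, 5′ to 3′ on the strand of the gene. Capitals mark the GC box (GGGCGG, here read on the other strand) in Hcn2, the CRE (TGACGTCA) in Clcn4, the E-box (CACGTG) in Clcn7 and the PU.1 motif (GAGGAAGT) in Trpv2. Hcn2 lies at chr10:79716474-79716633 (+), Clcn4 at chr7:7299558-7299717 (-), Clcn7 at chr17:25133231-25133390 (+) and Trpv2 at chr11:62574326-62574485 (+).
Hcn2: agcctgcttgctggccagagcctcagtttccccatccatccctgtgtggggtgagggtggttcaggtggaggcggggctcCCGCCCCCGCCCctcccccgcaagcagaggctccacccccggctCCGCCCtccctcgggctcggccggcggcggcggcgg
Clcn4: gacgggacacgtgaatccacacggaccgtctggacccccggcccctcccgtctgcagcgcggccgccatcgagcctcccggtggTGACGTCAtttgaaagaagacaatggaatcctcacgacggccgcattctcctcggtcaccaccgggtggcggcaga
Clcn7: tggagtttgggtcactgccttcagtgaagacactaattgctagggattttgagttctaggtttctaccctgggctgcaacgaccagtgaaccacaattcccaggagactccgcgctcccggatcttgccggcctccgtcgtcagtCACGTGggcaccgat
Trpv2: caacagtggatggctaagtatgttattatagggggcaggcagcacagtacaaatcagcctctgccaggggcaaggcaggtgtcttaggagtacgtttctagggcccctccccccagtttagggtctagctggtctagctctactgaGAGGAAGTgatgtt

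Of the channel genes, 64 of 80 had a promoter in the table, among them 17 of the 21 lower genes and both higher genes, and 9 motifs were searched on both strands in the 250 bases before the start. The GC box, bound by Sp1-type factors, was in 10 of the 17 lower genes, in 0 of the 2 higher genes and in 32 of the 64 channel genes, against 32.9% of 27025 promoters. The lower genes had a median GC content of 62.8%, all channel genes of 60.8% and all promoters of 52.0%, and the part of base composition in the GC box count was not tested. The E-box, which TFEB binds in genes of lysosomes, was in Clcn7 and, of the lower genes, in Clcn4 alone, where it stands in lower case above, against 6.05% of promoters, and the PU.1 motif, that of a factor of macrophages, was in Trpv2 and in no other channel gene, against 2.44%. The CRE was in Clcn4 and in no other channel gene, against 1.62%. The TATA box (TATAAA) was in 1 of the 17 lower genes, against 13% of all promoters, and the reversed CCAAT box (ATTGG) in 4, against 34.5%. Of the RE1 site, known for silencing neuronal genes in other cells, the left part (TTCAGCACC) was in 0, against 0.285%. Its right part (GGACAG) was in 2, against 18.7%. The STAT motif (TTCNNNGAA), used in interferon and cytokine signalling, was in 2 as well and in 1 of the 2 higher genes, Clcn7, where it is unmarked above, against 7.18%. A match of letters shows no binding.

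Channels were also grouped by the cells they are known from. The lists used here and below, of channels, other genes and cell markers, were chosen with earlier results of these data known. Of 14 probe sets (10 of 18 listed genes) of nodes and axons, 7 (50.0%) were lower in EAE, against 11.4% of all probe sets, and none was higher, with a median of -0.40. They are the probe sets of Scn8a, Scn1a, Kcna1, Kcnab1 and Kcnab2 given above. Of 12 probe sets (7 of 12 listed genes) known from immune cells, 2 (16.7%) were higher, Trpv2 and Clcn7, and 1 (8.33%) was lower, Clcn5, with a median of 0.09. The shares of all probe sets were 8.26% higher and 11.4% lower. Kcna3, which encodes the lymphocyte channel Kv1.3, read 5.24 to 5.42 in EAE and 5.31 to 5.40 in control and differed by 0.02, and Kcnj2, an inward rectifier of macrophages, differed by -0.02 at 4.20 to 4.40. Of the 2 glial channel probe sets Kcnk1 was lower and Clcn2 did not pass, and 0 of 5 probe sets of skeletal muscle channels passed. The difference between these groups was not tested.

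Genes whose products hold or steer channels, and are no channels themselves, were counted apart. Of 17 probe sets of anchors and nodal partners (13 of 22 listed genes), 8 (47.1%) were lower, against 11.4% of all probe sets, none was higher and the median was -0.38. Ank1 and Ank3, ankyrins that tie channels to the spectrin skeleton (Ank3 at nodes and axon starts), were lower on 3 and 2 probe sets, with differences down to -0.89 and -0.66. Cntn1, a contactin beside the node, differed by -0.36, and Fgf11 and Fgf12, intracellular FGF-like proteins that bind sodium channels, by -0.63 and -0.54 (limma adjusted p = 0.0213, 0.0174 and 0.019). A second, dim Fgf11 probe set differed by -0.11 (limma adjusted p = 0.319), and Cntnap1 and Nrcam, further partners at the node and beside it, differed by 0.01 and -0.04 and did not pass.

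Pumps and exchangers, which restore the ion gradients, had 2 of 14 probe sets lower (10 of 18 listed genes, median -0.12), a share of 14.3% that lies near the 11.4% of all probe sets, and none higher. The 2 were Atp1b1, a sodium pump subunit (-0.48, limma adjusted p = 0.0346), and Atp2b2, a neuronal calcium pump (-0.45, limma adjusted p = 0.0364). A second Atp1b1 probe set did not pass (limma adjusted p = 0.996). Of 14 probe sets of calcium sensors and stores (11 of 16 listed genes, median -0.16), 4 (28.6%) were lower, against 11.4% of all probe sets, and none was higher. They were Calb1 and Pvalb, calcium buffers of neurons, Camk2b, a calmodulin-dependent kinase, and Fkbp1b, which binds Ryr2, with differences of -0.56, -0.37, -0.36 and -0.46. A second Pvalb probe set differed by -0.32 and did not pass (limma adjusted p = 0.0603).

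Markers of cell types were measured on the same arrays. Of 14 neuron marker probe sets 6 (42.9%) were lower (Snap25, Gap43, Nefh, Eno2 and 2 of Stmn2), against 11.4% of all probe sets, and none was higher. Bright ones made up 12 of the 14 and held all 6, against 18.6% of all bright probe sets. Their mean level was 8.36 to 8.79 on EAE arrays and 9.04 to 9.15 on control arrays. Relative to control, the neuron markers lay at -0.59, -0.50, -0.31, -0.68 and -0.74 on EAE arrays 1 to 5 and the bright channels at -0.41, -0.30, -0.30, -0.33 and -0.27, so that both were below control on all 5 EAE arrays, with EAE array 5 the lowest for the markers and the highest for the channels. Of 3 motor neuron marker probe sets (2 of 5 listed genes) 2 (66.7%) were lower, both of peripherin (Prph), against 11.4% of all probe sets. The third, of Isl1, differed by -0.14 and did not pass (limma adjusted p = 0.209). Of 14 myelin markers 3 (21.4%) were lower, near the 18.6% of all bright probe sets since 13 of the 14 are bright. Mean levels of the myelin markers were 8.60 to 9.00 in EAE and 9.09 to 9.28 in control. Astrocyte markers had 2 of 11 probe sets higher and 2 lower (18.2% each). All 11 are bright, and the lower share lies near the 18.6% of all bright probe sets. Of the 6211 bright probe sets 680 were higher. The shares of all probe sets were 8.26% higher and 11.4% lower. Macrophage and microglia markers had 16 of 20 probe sets higher (80.0%) and none lower, at mean levels of 7.15 to 7.53 in EAE and 5.55 to 5.65 in control. Of 8 T cell marker probe sets 4 (50.0%) were higher. The part of the cell mix in the channel differences was not tested.

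Of 15 skeletal muscle marker probe sets only 1, of Pvalb, also a neuronal gene, passed. The mean level of the 15 was 5.15 to 5.36 in EAE and 5.23 to 5.25 in control. Endothelial markers had 1 of 7 probe sets higher and 1 lower (14.3% each), against 8.26% and 11.4% of all probe sets. Bright ones made up 6 of the 7, and 18.6% of all bright probe sets were lower. Of the red blood cell marker probe sets 0 of 2 passed, and no Schwann cell marker of the list was measured. The 3' to 5' difference of beta-actin was 2.35 and 2.79 on EAE arrays 1 and 4, 1.11 to 1.83 on the other EAE arrays and 1.62 to 2.29 on the control arrays. Array medians were 6.08 to 6.12, and Pearson correlations over all probe sets, given as a description, were 0.975 to 0.991 between EAE arrays, 0.990 to 0.995 between control arrays and 0.931 to 0.951 across the groups.

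**Figure D4:**
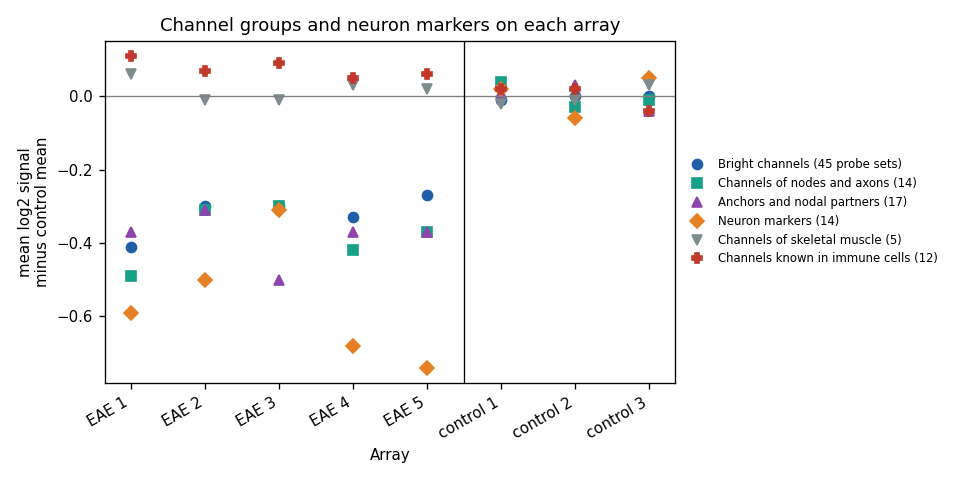
Mean log2 signal of the bright channels and of other gene groups on each array as the distance from the control mean, with EAE arrays left of control arrays. The bright channels and the neuron markers lie below 0 on all 5 EAE arrays. The channels known in immune cells, with 4 of their 12 probe sets from Itpr2, lie slightly above 0 on all 5.

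The number of channel calls changed when single arrays of batches 1 to 3, each with only 1 array of each kind, were left out. Without EAE array 1 or control array 1, 21 channel probe sets were lower, against 7.91% of all probe sets; without EAE array 2 or control array 2, 11 were, against 4.60%; and without EAE array 3 or control array 3, 6 were, against 1.81%. All 29 called probe sets kept their direction in each case. That outcome was fixed in advance, since each of the 29 had the same sign within batches 1, 2 and 3. The 4 that passed in every one of these fits were Kcnab1 (102725_at), Clcn3 (94464_at), Clcn4 (99672_at) and Ryr2. With limma's moderation left out, which gives the 2-way linear model of the methods, 0 channel probe sets passed the adjusted threshold. At an unadjusted p under 0.05 that model had 24 lower and 3 higher, against 32 lower and 3 higher with moderation.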

How the data were processed

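RNA of whole spinal cords was measured on 8 Affymetrix MG U74Av2 arrays, 5 EAE and 3 control. The deposited values are log2 signals that the authors made in Partek Genomics Suite with RMA, quantile normalization and an adjustment for GC content (versions are not given in the sources used here), and they were not normalized again. Groups and batches came from the labels. Precision is limited by the number of arrays, and p values measure the spread between pools.

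EAE and control were compared by limma 3.58.1 under R 4.3.3 (lmFit, eBayes), with terms for treatment and batch, after the 2-way model of the methods, with moderated variances (2 residual and 3.05 prior degrees of freedom), over 12422 probe sets without the 66 control probe sets and with no filter on dim ones. Tests were two-sided with Benjamini-Hochberg adjustment at 0.05. Arrays with the same number share a batch and, per the labels, a shared killing day. The correlations of their deviations from the group means were 0.302, -0.231 and 0.412 for batches 1, 2 and 3.

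Gene symbols came from the platform annotation, with 1 symbol for 10833 probe sets, several for 396 and none for 1193. All 105 channel probe sets were matched by Entrez identifier to GRCm38.p6, and 21 genes had several. In probe set names, letters such as s, f, r, i or g before the ending mark sets with shared or fewer selected probes. Named probe sets are all those past the threshold, the 2 brightest of a class or subclass with none, members of the channel lists, and the other probe sets of a named gene. Named after their values were seen are Kcnab3, Kcnma1, Kcnj12, Kcns1, Hcn3, Scn7a, Scn9a, Scn10a, Kcnd3, Kcnq1, Cacna1a, Cacna1b, Cacna2d1 and the GIRK genes. The members and lists were chosen with earlier results of these data known. Alternatives tried were leaving out the batch term, taking batch as a random effect, no moderation, an intensity trend, median centring, a further quantile normalization, the 6211 brightest probe sets alone, the mean of the probe sets of a gene, a threshold of 0.01 and each array left out. The fit was tested on simulated data. Figures were drawn with matplotlib 3.10.9 from tables made with pandas 2.3.3 in Python 3.11.15.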

Additional observations from a re-analysis of the deposited data

Results flagged for a closer look

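Of the EAE values of 57 named probe sets, 1 array stood apart: Kcnab2 (162182_f_at) read 7.03 on EAE array 5, against 7.49 to 7.66 on the other 4 EAE arrays. Chance alone marks about 1 in 20 such groups. The array belongs to a batch with no control array and adds nothing to the fitted difference.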

How the results depend on the processing

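Precision is limited by 2 residual degrees of freedom, by pools as samples and by low signal in most channel probe sets. Of the 29 called probe sets none changed direction under any alternative. For arrays left out this was fixed in advance, since each of the 29 had the same sign within batches 1, 2 and 3. Leaving out moderation, the intensity trend and the bright subset do not alter the difference itself. With median centring and with an intensity trend all 29 passed, and among the 6211 brightest probe sets all 25 of the called ones they hold did.

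Without moderation of the variances, as in the model of the methods, 0 channel probe sets passed in either direction and in every class, against 1 higher and 0 lower over the whole array (1081 and 1575 at an unadjusted p under 0.05, and 1498 and 2587 with limma's moderation). Without the replicate block 22 channel probe sets were lower and 1 was higher, 20 of the 29 calls were kept, 9 were lost and 3 were gained (Kcna2, Kcnma1 and Kcnj12). The lost ones were Kcnab1 (102725_at), Kcnk1, Kcnk2, Kcnd2 (99339_r_at), Scn1a (both), Cacng2, Clcn7 and Ryr3. Sodium then had 1 lower and chloride 0 higher, as also with the block as a random effect, where potassium had 1 higher (Kcnn4, limma adjusted p = 0.0347). An intensity trend likewise gave potassium 1 higher (Kcnn4, limma adjusted p = 0.0419). After a further quantile normalization 1 channel probe set was higher and chloride had 0. With the mean of the probe sets of a gene, which counts genes, 1 was higher (chloride 0), sodium had 1 lower and chloride 3. Counted by genes, the main fit had 2 higher (chloride 1), and sodium had 2 lower and chloride 3. At an adjusted p under 0.01, 0 were higher in any class and 5 lower: potassium 2, sodium 0, calcium 0, chloride 2 and TRP, HCN and release channels 1.

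Leaving out EAE array 4 or 5 cannot change the fit, since neither shares a batch with a control array. The counts stayed at 2 channel probe sets higher and 27 lower. With each array of batches 1 to 3 left out in turn, 0 to 2 channel probe sets were higher and 6 to 21 lower. Lower calls numbered 1 to 11 for potassium, 0 to 3 for sodium, 1 to 3 for calcium, 2 to 6 for chloride and 1 to 4 for TRP, HCN and release channels. Higher calls numbered 0 to 1 for chloride and 0 to 1 for TRP, HCN and release channels. The cause of the different counts was not tested. Leaving out an array of batch 1, 2 or 3 also leaves fewer paired batches.

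The direction turned only for probe sets near 0 that did not pass. Kcna3 was -0.012 without the batch term, -0.0050 with batch as a random effect, -0.012 with median centring and -0.017 with a further quantile normalization. Clcn1 (102622_r_at) was -0.027 with median centring, -0.0037 after quantile normalization and -0.036 as the mean of its gene. Itpr2 was -0.020 and -0.00081 on 96420_at with the same scalings and 0.14 on 94565_at as the mean of its gene. With arrays left out in turn, differences ran from -0.055 to 0.0031 for Kcnj2, -0.10 to 0.0089 for Scn3a, -0.034 to 0.0084 for Cacng1, -0.19 to 0.034 for Clcn1 (95376_at), -0.045 to 0.042 for Clcn1 (102622_r_at) and -0.034 to 0.049 for Itpr2 (96420_at).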

Other observations

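In all, 9 channel probe sets had all EAE arrays below all control arrays and yet did not pass. They were Kcnab3, Kcnma1, Kcnj12, Kcna2, Kcns1, Hcn3, Scn7a, Clcn5 (161451_r_at) and Trpc1 (94740_g_at). Kcnj12, which encodes the inward rectifier Kir2.2, came closest, with EAE arrays at 4.71 to 4.84, control arrays at 5.03 to 5.24 and a difference of -0.34 (limma adjusted p = 0.0556). It passed without the batch term (limma adjusted p = 0.0081), with batch as a random effect (0.00521), with an intensity trend (0.024), with median centring (0.0397) and after a further quantile normalization (0.0484). Kcns1, a modifier of Kv2 channels, had the smallest difference of them, -0.07 (limma adjusted p = 0.529), at 4.32 to 4.37 in EAE and 4.38 to 4.45 in control.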
